A study of Mus musculus with 16 samples.

Results

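Transcripts of 10 genes that mark mast cells of the skin were followed across 16 bulk RNA-seq libraries of sorted mouse skin cells. The genes (*Mcpt4*, *Cma1*, *Tpsb2*, *Cpa3*, *Kit*, *Fcer1a*, *Ms4a2*, *Hdc*, *Mrgprb2* and *Gata2*) were taken by symbol from the 55487 gene IDs of the count table, and each had 1 row. The libraries formed 4 groups of 4: CD45-positive (immune) and CD45-negative (stromal) cells, each from skin stretched by hypobaric pressure (suction) and taken 6 h later, or from unstretched control skin of the same body area. The labels give no strain, age, sex or transgene, nor do they say whether the libraries come from separate animals, so p-values measure the spread between these libraries. Libraries carry the number in their titles, 3 to 6 for immune controls, 1, 2, 7 and 8 for stretched immune libraries, 1 to 4 for stromal controls and 5 to 8 for stretched stromal libraries.

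Mast cells are tissue-resident leukocytes that store proteases, histamine and heparin in granules and release them when IgE on their surface is crosslinked or when basic peptides bind a Mas-related receptor. Growth and survival depend on the receptor tyrosine kinase KIT and its ligand, stem cell factor, and the transcription factor GATA2 is needed to keep the mast cell gene programme on. Connective tissue mast cells of the skin differ from mucosal mast cells in the proteases they store. Several of the 10 genes are not restricted to mast cells. *Hdc* is also transcribed in neutrophils and basophils, *Kit* in melanocytes, *Gata2* in endothelial and progenitor cells, and *Fcer1a*, *Ms4a2* and *Cpa3* in basophils.

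The promoters of the members are shown because *Gata2* is itself a member and because most of the members varied together across the immune libraries. The letters bound by GATA factors were searched as AGATAA, with AGATAG as a form that ends differently, and as TGATAA, likewise with TGATAG as the other ending, on both strands in the 250 bases upstream of each RefSeq start (GRCm38.p6, the assembly of mm10). No other motif was searched. Of the 9 members matched in the promoter table, 7 held at least 1 match, against 29.7% of the 27025 genes in that table. *Tpsb2* was not matched. The matched stretches are written 5′ to 3′ in the direction of the gene, with the matched letters in capitals, which read as the reverse complement where the match is on the other strand.
Mcpt4 (chr14:56062391-56062430, minus strand): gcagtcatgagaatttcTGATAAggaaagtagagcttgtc
Cma1 (chr14:55944732-55944771, minus strand): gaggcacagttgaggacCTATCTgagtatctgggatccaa
Cpa3 (chr3:20242205-20242244, minus strand): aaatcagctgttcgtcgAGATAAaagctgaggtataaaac
Fcer1a (chr1:173227299-173227338, minus strand): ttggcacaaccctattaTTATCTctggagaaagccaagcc
Ms4a2 (chr19:11623734-11623773, minus strand): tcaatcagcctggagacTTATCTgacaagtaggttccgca
Hdc (chr2:126618877-126618916, minus strand): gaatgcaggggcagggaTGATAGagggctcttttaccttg
Mrgprb2 (chr7:48558112-48558151, minus strand): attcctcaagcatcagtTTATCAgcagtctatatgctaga
The match began 46 bases before the start in *Cpa3*, 48 in *Mrgprb2*, 79 in *Cma1*, 92 in *Fcer1a*, 103 in *Mcpt4* and 221 in *Hdc*. *Ms4a2* held 3 matches, of which the one shown began 37 bases before the start. The 2 promoter entries of *Kit* and the 2 of *Gata2* held none of these letters in this window. A match describes the sequence and is no evidence that a factor binds there.

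Immune controls held 2645421 to 6662268 counted reads and stretched immune libraries 7018743 to 20095580, so depth and stretching went together in that fraction. The stromal ranges were 13563586 to 20467010 (control) and 21955174 to 26944965 (stretched). Immune control 4 and stretched stromal libraries 7 and 8 stood apart by their reads on olfactory and vomeronasal receptor genes (5942, 408 and 200.3 CPM on the library total, against 17.8 to 68.8 in the others). Values without these libraries are given beside several of the results below, though not beside each one that they move. *Ptprc*, which encodes CD45, lay between 205.8 and 702 CPM in the immune and between 0.0644 and 3.37 CPM in the stromal libraries, with a log2 fold change of 9.68 ± 0.79 (SE) in control skin. CPM values below are read counts relative to the library's size, scaled by TMM factors over all 16 libraries. The factor was 1.75 in immune control 4 and 0.686 in stretched immune library 2, against 0.864 to 1.15 in the others. It thus lowers the values of immune control 4 and raises those of stretched immune library 2.

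All 10 genes were far more abundant in the immune than in the stromal fraction, in control and in stretched skin. In control skin, 10 of 10 members rose towards the immune fraction (edgeR's quasi-likelihood fit, with p-values adjusted by Benjamini-Hochberg and a threshold of 0.05), where 26.6% of the 15142 genes tested were called higher. In stretched skin 10 of 10 were called higher too, against 23.9% of 17116 genes. In both comparisons each of the 4 immune libraries lay above each of the 4 stromal libraries for 10 of 10 members, which held for 21.7% and 26.6% of all genes tested. The median log2 fold change of the members was 8.77 in control and 9.06 in stretched skin, beside 0.085 and -0.063 over all genes tested. *Fcer1a*, *Ms4a2* and *Mrgprb2*, with 2, 1 and 3 reads over the stromal controls, passed the filter on low counts through their immune reads. Their part in these counts and medians thus depends on the fraction where they are high. The members were also chosen as genes of a leukocyte, and the sort was on CD45.

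The granule proteases carried most of the reads. *Mcpt4* (ENSMUSG00000061068, chromosome 14, 56059629 to 56062313, GRCm38), which encodes a chymase of connective tissue mast cells, was at 1495, 515, 377 and 2374 CPM in immune controls 3 to 6 and at 1325, 1361, 1339.7 and 1234 CPM in stretched immune libraries 1, 2, 7 and 8. In the stromal fraction it lay between 1.29 and 2.26 CPM in the controls and between 0 and 2.40 CPM after stretch, where library 7 had 0 reads (3 reads there would be 0.133 CPM on the library total). The fractions did not overlap by over 2 orders of magnitude, and the log2 fold change was 9.45 ± 0.73 in control skin (adjusted p = 5.61e-06, edgeR) and 10.28 ± 1.08 in stretched skin (adjusted p = 6.12e-05, edgeR). *Cma1* (ENSMUSG00000022225, chromosome 14, 55941451 to 55944675) encodes the chymase mast cell protease 5 and lies in the same protease cluster. Its immune values were 1155, 269, 218 and 1287 CPM in the controls and 957, 1236, 966 and 839.8 CPM in the stretched libraries, against 0.155 to 4.47 CPM in the 8 stromal libraries. The same 2 controls, 4 and 5, were low for both chymases. On the library total *Mcpt4* and *Cma1* were at 900 and 471 CPM in control 4 and at 340 and 197 CPM in control 5. The lowest stretched immune values on that scale were 934 and 788 CPM.

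*Tpsb2* (ENSMUSG00000033825, chromosome 17, 25366305 to 25369098), the tryptase mast cell protease 6, was at 436, 206, 180.1 and 1915 CPM in immune controls 3 to 6 and at 1102, 1114, 1043 and 1096 CPM in stretched libraries 1, 2, 7 and 8. *Cpa3* (ENSMUSG00000001865, chromosome 3, 20215620 to 20242181), the carboxypeptidase stored with the chymases, was at 553, 112, 99.4 and 745 CPM in the controls and at 757, 656, 907 and 979 CPM after stretch. In the 8 stromal libraries *Tpsb2* stayed within 0.0760 to 3.45 CPM and *Cpa3* within 0.116 to 2.26 CPM. Control 6 was the one control with more *Tpsb2* than each stretched library, and control 3 had more *Mcpt4* but less *Tpsb2* than each of them. For *Tpsb2* the log2 fold change between the fractions was 8.83 ± 1.15 in control and 9.601 ± 0.689 in stretched skin, and for *Cpa3* it was 8.26 ± 0.88 and 10.01 ± 0.65.

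*Hdc* (ENSMUSG00000027360, chromosome 2, 126593667 to 126619299) encodes histidine decarboxylase, which makes histamine. It was at 869, 472, 1387 and 1130.5 CPM in immune controls 3 to 6 and at 725, 4818, 929 and 1112 CPM in stretched libraries 1, 2, 7 and 8. Stretched library 2 stood far above the other 7 immune libraries, and the remaining 3 stretched values lay within the range of the controls. On the library total *Hdc* was at 3307 CPM in stretched library 2. Stretched library 1, at 690 CPM, then lay below each control (825 to 1251 CPM). Its log2 fold change between the fractions was 8.91 ± 0.56 in control and 8.78 ± 1.02 in stretched skin.

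The surface receptors were less abundant. *Fcer1a* (ENSMUSG00000005339, chromosome 1, 173221284 to 173227214), the IgE-binding alpha chain of the high-affinity IgE receptor, was at 29.3, 4.97, 8.63 and 29.6 CPM in the immune controls and at 8.99, 31.6, 9.20 and 11.6 CPM after stretch. *Ms4a2* (ENSMUSG00000024680, chromosome 19, 11615523 to 11623719), the signal-amplifying beta chain, was at 29.3, 11.9, 2.47 and 19.9 CPM in the controls and at 15.5, 18.3, 26.3 and 27.6 CPM after stretch. *Mrgprb2* (ENSMUSG00000050425, chromosome 7, 48550965 to 48558086), the Mas-related receptor for basic peptides and drugs, was at 33.0, 6.05, 2.96 and 24.1 CPM in the controls and at 34.5, 26.4, 48.0 and 50.8 CPM after stretch. Both IgE receptor chains and *Mrgprb2* overlapped between stretched and control libraries, and *Fcer1a* was high in a different set of libraries from the other receptors.

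In the stromal controls these 3 receptors were nearly absent, with 2 reads of *Fcer1a*, 1 of *Ms4a2* and 3 of *Mrgprb2* over 4 libraries, all in stromal control 4. The ratio of pooled read rates, immune to stromal, was therefore loosely bounded. It was 651 for *Fcer1a* (exact 95% interval 179 to 5396), 1105 for *Ms4a2* (197 to 43761) and 392 for *Mrgprb2* (133 to 1911). These intervals treat each read as independent and cover the counting error of reads only. The stretched stromal libraries held 8, 36 and 5 reads of these genes. Of the 36 *Ms4a2* reads, most lay in stretched stromal libraries 7 (25 reads, 0.968 CPM) and 8 (7 reads, 0.237 CPM), 2 of the libraries with many olfactory receptor reads. The log2 fold change of *Ms4a2* between the fractions in stretched skin was 5.77 ± 0.69, and 7.69 without them, and the part of those reads in this value was not tested.

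*Kit* (ENSMUSG00000005672, chromosome 5, 75574916 to 75656722) had the smallest difference between the fractions among the 10. It was at 57.5, 37.2, 24.4 and 91.3 CPM in the immune controls and at 49.6, 60.8, 59.8 and 76.3 CPM after stretch. On the library total immune control 4 had 65.0 CPM *Kit*, above the 58.3 CPM of immune control 3. Its stromal values were 2.13, 2.86, 4.70 and 0 CPM in controls 1 to 4 and 1.97, 2.94, 4.69 and 7.42 CPM in stretched libraries 5 to 8. Stromal control 4 had 0 *Kit* reads although it held the highest stromal levels of *Cma1*, *Tpsb2* and *Cpa3*. The log2 fold change between the fractions was 4.55 ± 0.85 in control (adjusted p = 0.00123, edgeR) and 3.71 ± 0.40 in stretched skin (adjusted p = 7.58e-05, edgeR). Without stretched stromal libraries 7 and 8 the value in stretched skin was 4.53.

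Markers of melanocytes, which also carry KIT, were present in the stromal fraction. Their 7 genes (*Dct*, *Tyr*, *Tyrp1*, *Pmel*, *Mlana*, *Sox10*, *Slc45a2*) summed to 151.6, 133, 126 and 12.2 CPM in stromal controls 1 to 4 and to 83.0, 89.6, 70.3 and 236.9 CPM in stretched libraries 5 to 8. The stromal library without *Kit* reads had the lowest sum and the library with the most *Kit* had the highest, but the 6 between them did not follow the sum, since control 1, with the second highest sum, had 2.13 CPM *Kit*. Nor was each marker low in stromal control 4, where *Mlana* was at 7.41 CPM, against 3.45 to 12.9 CPM in the other stromal libraries. In the immune libraries the same genes summed to 13.5 to 142 CPM. Of the 6 melanocyte genes tested between the fractions, 0 were called in control skin (edgeR, 0 also at an unadjusted p under 0.05) and 4 were called lower in the immune fraction of stretched skin. The part of melanocytes in stromal *Kit* was not tested.

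*Gata2* (ENSMUSG00000015053, chromosome 6, 88193891 to 88207032) was at 117.8, 64.2, 44.9 and 121 CPM in the immune controls and at 78.2, 72.2, 74.7 and 101.4 CPM after stretch. Its stromal levels were 1.75, 0.743, 0.708 and 0.792 CPM in controls 1 to 4 and 0.963, 2.09, 1.70 and 1.86 CPM in stretched libraries 5 to 8. The log2 fold change between the fractions was 6.57 ± 0.46 in control and 5.48 ± 0.30 in stretched skin. Endothelial markers also moved with the sort, since 7 of 8 blood and 4 of 5 lymphatic endothelial genes were called higher in the immune fraction of control skin. Blood endothelial genes summed to 713, 373, 129.8 and 285 CPM in immune controls 3 to 6 and to 95.9 to 303 CPM in the stretched immune libraries. *Gata2* was lowest in control 5, which had the lowest endothelial sum of the controls, but control 6 had the most *Gata2* with a smaller endothelial sum than control 3. The part of endothelial cells in *Gata2* was not tested.

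**Figure D1:**
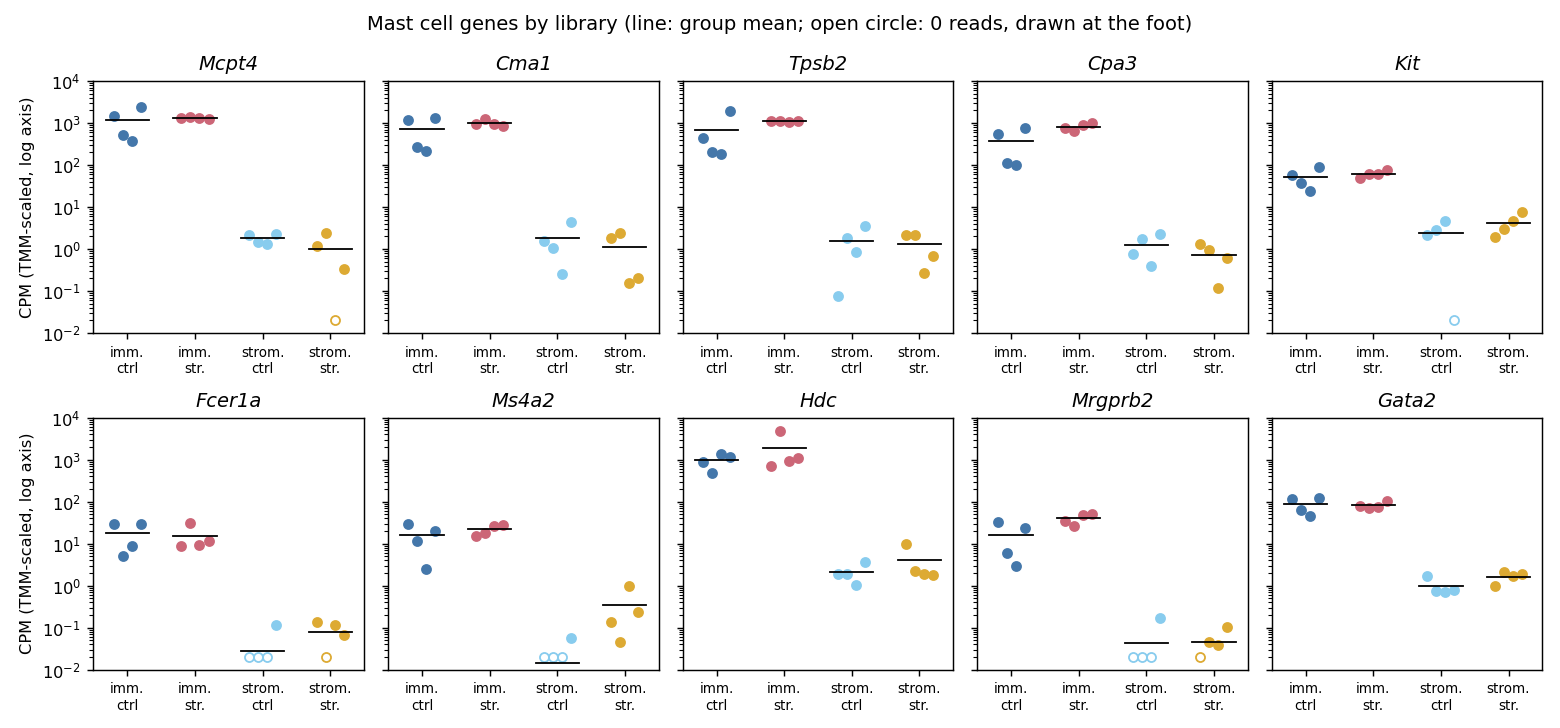
CPM (TMM-scaled, log axis) of each of the 10 genes in the 16 libraries, by group, with the group mean as a line and libraries at 0 reads as open circles at the foot. Immune libraries lie above stromal ones for each gene, and the stretched immune values of *Mcpt4* (1234 to 1361 CPM) and *Tpsb2* (1043 to 1114 CPM) lie within the range of the immune controls.

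**Figure D2:**
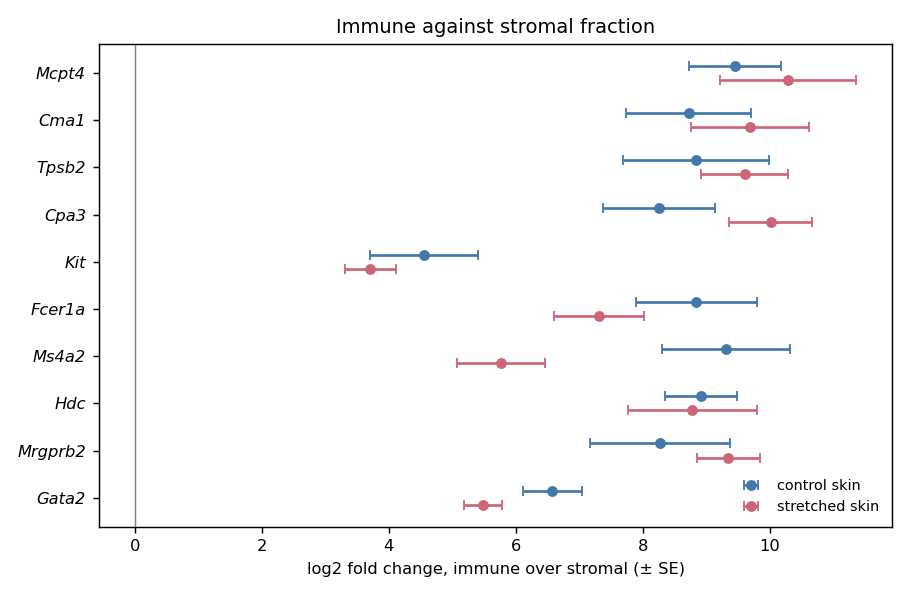
Log2 fold change of the immune over the stromal fraction in control and stretched skin, with SE bars from the edgeR fit (n = 4 libraries per group). *Kit* has the smallest values (4.55 and 3.71), and the value of *Ms4a2* is 9.31 in control and 5.77 in stretched skin, or 7.69 without stretched stromal libraries 7 and 8.

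Per kilobase of exon, the order of the 10 genes was led by the proteases. In the stretched immune libraries the mean level was 1187 CPM per kb for *Mcpt4*, 917 for *Cma1*, 683 for *Tpsb2*, 544 for *Cpa3* and 297 for *Hdc*, and each of the first 3 exceeded the next in 4 of 4 libraries. *Cpa3* exceeded *Hdc* in 3 of 4. The other 5 genes lay between 6.92 CPM per kb (*Kit*) and 19.2 (*Mrgprb2*), and among them *Mrgprb2* exceeded *Fcer1a* in 3 of 4 libraries, *Fcer1a* exceeded *Gata2* in 1 of 4 and *Ms4a2* exceeded *Kit* in 2 of 4. In the immune controls the first 5 genes came in the same order, from 1074 ± 842 CPM per kb (SD, n = 4) for *Mcpt4* to 151 ± 61.1 for *Hdc*, but *Cma1* exceeded *Tpsb2*, and *Tpsb2* exceeded *Cpa3*, in 3 of 4 libraries, and *Cpa3* exceeded *Hdc* in 2 of 4. In the stromal fraction no member exceeded a mean of 1.68 CPM per kb.

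Reads of near-identical genes could blur these levels. Of the 50-base words in the annotated transcripts, 5.48% of those of *Mcpt4* also occur in transcripts of *Cma2* and 5.38% of those of *Cma1* in those of *Gm48934*. The share was 2.10% for *Ms4a2* (with *Ms4a4b*), 0.14% for *Hdc* and 0% for the other 6 members, *Tpsb2* among them. How reads that map to several places were counted is not stated in the labels.

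The question of the study's design was whether these transcripts differ 6 h after stretching, and no member passed the test in either fraction. In the immune fraction 0 of 10 members were called (edgeR, 0 also at an unadjusted p under 0.05, and 0 by DESeq2), where 0% of 14183 genes were called (2467 had an unadjusted p under 0.05, and DESeq2 called 781). The stretched and control libraries did not overlap for 0 of 10 members, against 11.5% of all genes tested. The median log2 fold change of the members was 0.30, with 8 positive and 2 negative, beside -0.022 over all genes.

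The largest values were those of *Mrgprb2* and *Cpa3*. *Mrgprb2* had a log2 fold change of 1.11 ± 0.58 (39.9 ± 11.5 against 16.5 ± 14.4 CPM, SD, n = 4 per group; adjusted p = 0.338, edgeR), with stretched library 2 below immune control 3. *Cpa3* had 1.0 ± 0.57 (825 ± 145 against 377 ± 323 CPM; adjusted p = 0.377, edgeR), with stretched library 2 below immune control 6. Without immune control 4 these were 0.86 and 0.71. *Tpsb2* had 0.57 ± 0.64 and *Cma1* 0.33 ± 0.53 (0.28 and 0.068 without that control). *Mcpt4* had 0.013 ± 0.50, so its SE was many times its value. For the receptors, *Ms4a2* had 0.27 ± 0.54, *Kit* 0.057 ± 0.34 and *Fcer1a* -0.36 ± 0.60, and *Gata2* had -0.27 ± 0.31. In a bulk sample, a different number of mast cells and a different amount of RNA per cell cannot be told apart.

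*Hdc* had a log2 fold change of 0.87 ± 0.64 (adjusted p = 0.491, edgeR), and -0.26 without stretched library 2. Neutrophil markers (8 genes, led by *S100a8* and *S100a9*) summed to 48245 CPM there, while stretched libraries 1, 7 and 8 had sums of 153 to 817 CPM. In immune controls 3 to 6 they summed to 6698, 1468, 9892 and 439 CPM, and control 5, with the highest sum, also had the highest *Hdc* of the controls (1387 CPM) beside the lowest *Mcpt4* (377 CPM). Among the other immune libraries no such order was seen. Control 3, with a neutrophil sum of 6698 CPM, had 869 CPM *Hdc*. That was below control 6 and stretched library 8, which had 1130.5 and 1112 CPM *Hdc* at neutrophil sums of 439 and 153 CPM. *Hdc* gave 51.3% of the members' summed CPM in stretched library 2 and 59.1% in control 5, against 14.4% to 27.8% in the other 6 immune libraries. In the stromal fraction, too, the library with the most *Hdc*, stretched library 5 (10.0005 CPM, against 1.03 to 3.73 in the others), had the highest neutrophil sum (15.96 CPM, against 2.02 to 9.67). The part of neutrophils in the *Hdc* values was not tested.

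**Figure D3:**
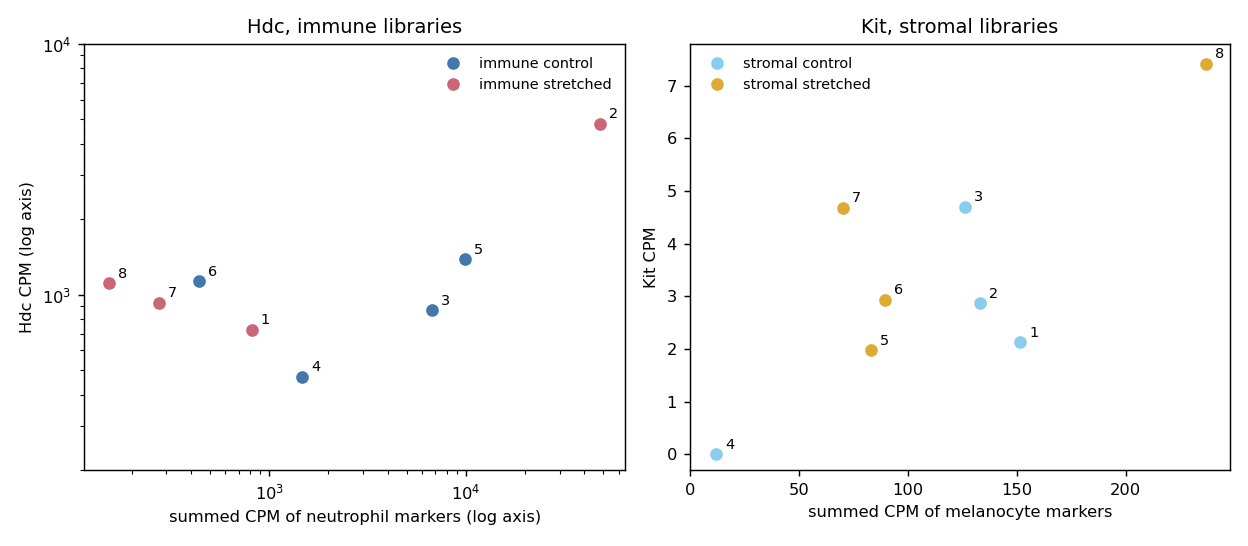
Left, *Hdc* CPM against the summed CPM of 8 neutrophil markers in the 8 immune libraries (both axes log). Right, *Kit* CPM against the summed CPM of 7 melanocyte markers in the 8 stromal libraries (both axes linear), with title numbers beside the points. Stretched immune library 2 (4818 CPM *Hdc*) and stretched stromal library 8 (7.42 CPM *Kit*) are highest on both axes of their panels, and stromal control 4 is lowest on both in the right panel.

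Without *Hdc*, the other 9 members summed to 3907, 1226, 958 and 6607 CPM in immune controls 3 to 6 and to 4329, 4577, 4473 and 4417 CPM in stretched libraries 1, 2, 7 and 8. The controls thus lay on both sides of the stretched libraries, 3 below and 1 above, with control 3 the nearest to them. The leukocyte genes of the sort (*Ptprc*, *Coro1a*, *Laptm5*, *Cd52*, *Cd53*) did not follow this pattern, since they summed to 4057 CPM in control 5, above the 2983 CPM of control 3 and the 3344 CPM of control 6. In control 4 they were at 1241 CPM, the lowest of the 8 immune libraries. The scale factor of control 4 lowers each of its sums given here.

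The spread between libraries was smaller after stretch for 9 of 10 members, the exception being *Hdc*. The coefficient of variation was 4.27% in the stretched against 78.4% in the control libraries for *Mcpt4*, and 2.91% against 121% for *Tpsb2*. With CPM scaled to the library total it was 13.4% against 71.6% and 13.7% against 116%, and 9 of 10 members again had the smaller value after stretch. Among the 10285 genes with a mean of at least 5 CPM in the immune libraries, 73.0% had the smaller coefficient after stretch. Without immune control 4 the count was 8 of 10 members (not *Hdc* or *Fcer1a*), against 57.9% of these genes, with 70.7% in the controls for *Mcpt4* and 111% for *Tpsb2*. The stretched libraries were also deeper, and the part of depth was not tested.

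Members moved together to different degrees over the 8 immune libraries. *Mcpt4* varied 6.30-fold, but its ratio to *Cma1* stayed between 1.10 and 1.91, and *Kit* kept a ratio to *Gata2* of 0.488 to 0.842. *Cpa3* and *Mrgprb2*, which varied 9.85-fold and 17.2-fold, kept a ratio of 16.8 to 33.6. The ratio of *Hdc* to *Mrgprb2*, by contrast, ran from 19.3 to 469. The Pearson correlation of a member's log2 CPM with the mean of the other 9 was highest for *Cma1* (0.978), *Mcpt4* (0.954) and *Cpa3* (0.94), and lowest for *Fcer1a* (0.64) and *Hdc* (0.238). Over the 7 libraries without control 4 it was 0.968 for *Cma1*, 0.479 for *Fcer1a* and -0.039 for *Hdc*, and the 4 ratios named kept ranges within those given. These are descriptions over libraries that share depth and group, and they carry no test.

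**Figure D4:**
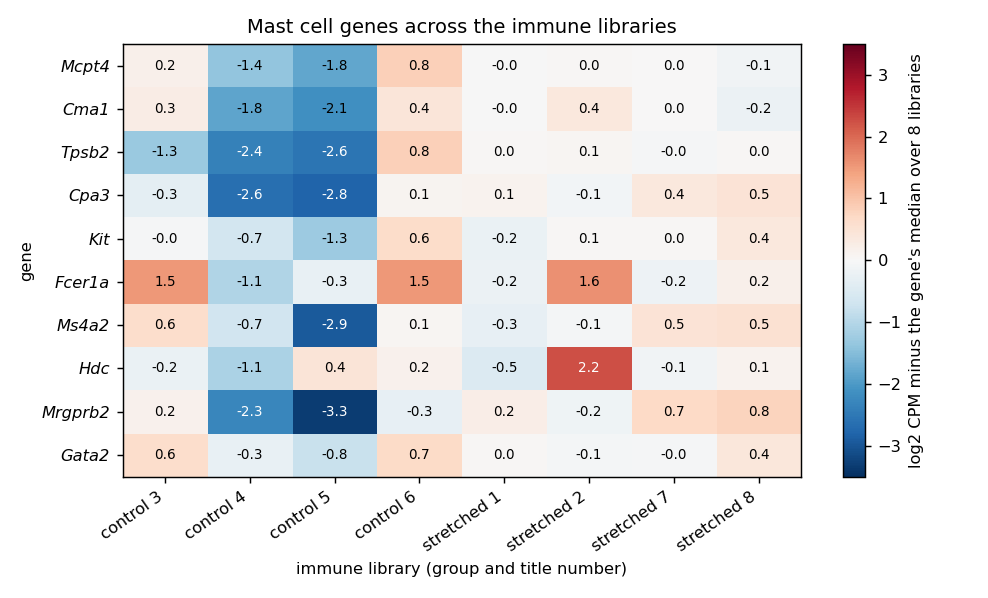
Log2 CPM (TMM-scaled) of each of the 10 genes in the 8 immune libraries, minus the gene's own median over these libraries. Controls 4 and 5 are low for the proteases and *Mrgprb2*, while *Hdc* stands out in stretched library 2 (4818 CPM) and *Fcer1a* in controls 3 and 6 and stretched library 2 (29.3 to 31.6 CPM).

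*Fcer1a* was highest in the 3 immune libraries with 29.3, 29.6 and 31.6 CPM. Basophils share this gene, and the basophil protease *Mcpt8* was highest in 2 of these, control 3 (13.9 CPM) and stretched library 2 (10.8 CPM), and next highest in control 6 (4.59 CPM), against 0.740 to 3.06 CPM in the other 5. *Prss34*, a second basophil protease, was highest in stretched library 2 (20.8 CPM) but at 5.30 CPM in control 3, below stretched library 8 (12.04 CPM) and control 4 (11.9 CPM). Of the other 2 basophil markers listed, *Cd200r3* was highest in the 3 libraries with the most *Fcer1a* (25.7, 24.1 and 28.9 CPM in controls 3 and 6 and stretched library 2, against 5.84 to 21.0005 CPM), while *Itga2b*, which was lower in the immune than in the stromal fraction, was highest in stretched library 7 (29.2 CPM). Among eosinophil markers, *Siglecf* lay between 0.865 and 6.85 CPM and *Ccr3* between 0.973 and 5.43 CPM in the immune libraries, and the granule gene *Epx* at 0 to 0.432 CPM. The part of basophils in *Fcer1a* was not tested.

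The genes whose pattern over the 8 immune libraries was most like the mean log2 CPM of the 10 members were ranked among 10285 genes, as a description. The 10 nearest were *Hs3st1* (Pearson r 0.977), *Ormdl1* (0.974), *Tfpt* (0.97), *Pithd1* (0.966), *Trbc2* (0.965), *Tph1* (0.964), *Rab27b* (0.96), *Slc18a2* (0.959), *Serpinb1a* (0.958) and *Eif4a3* (0.957). *Tph1*, which encodes the enzyme that starts serotonin synthesis, was at 18.4 ± 14.4 CPM in immune controls and 27.8 ± 8.09 CPM after stretch, and *Slc18a2*, the vesicular monoamine transporter, at 30.1 ± 10.5 and 40.4 ± 6.49 CPM. *Rab27b*, a small GTPase of granule secretion, was at 21.9 ± 11.3 and 33.2 ± 6.24 CPM. Some of the nearest genes were not particular to the immune fraction. Over the 8 stromal libraries *Pithd1* had a mean of 37.7 CPM and *Eif4a3* of 126 CPM. Of the genes listed for mast cells in this work, *Tpsg1* stood at rank 17 (0.939), *Mrgprb1* at 32 (0.921), *Lat* at 36 (0.917) and *Tpsab1* at 54 (0.906). The rest of those ranked stood lower, from *Fyn* at 446 (0.813) down to *Kitl* at 9612 (-0.463). Among them were *Srgn* at 6283 (0.16), *Mitf* at 7952 (-0.111) and *Btk* at 9494 (-0.43). With 8 libraries, 64 genes had a correlation over 0.9. Without control 4, only 4 of the 10 nearest genes (*Hs3st1*, *Tph1*, *Ormdl1* and *Tfpt*) remained among the first 10, and the others stood at ranks 13 to 24.

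Further mast cell granule genes were mostly more abundant in the immune fraction. Of 9 tested among 12 further proteases and granule genes, 6 were higher in the immune fraction of control skin and 2 lower. The tryptase *Tpsab1* had a log2 fold change of 8.11 ± 0.76, *Slc18a2* of 3.59 ± 0.34 and *Srgn*, the granule proteoglycan serglycin, of 6.89 ± 0.57, while *Cd63*, a tetraspanin of granule membranes, was lower (-1.08 ± 0.37). The mucosal mast cell proteases *Mcpt1* and *Mcpt2* were near 0 in the immune libraries, with 0 reads of *Mcpt1* in all 8 and at most 0.740 CPM of *Mcpt2*.

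After stretch, 0 of these 9 granule genes were called in the immune fraction (edgeR, 3 at an unadjusted p under 0.05), with 8 positive values and a median of 0.77. Of all 14183 genes tested, 2467 had an unadjusted p under 0.05. *Tpsab1* was at 151, 281.5, 166 and 153.6 CPM in stretched libraries 1, 2, 7 and 8 and at 86.0, 29.0, 27.9 and 113.6 CPM in immune controls 3 to 6. These groups did not overlap, and the log2 fold change was 1.43 ± 0.45 (adjusted p = 0.193, edgeR). The groups did not overlap for 2 of the 12 listed granule genes, against 11.5% of all genes tested.

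Genes of IgE receptor signalling, many of which other leukocytes use too, were also mostly higher in the immune fraction. Of 14 tested, 12 were higher and 1 lower in the immune fraction of control skin, among them the receptor's gamma chain *Fcer1g* (8.97 ± 0.53), the lipid phosphatase *Inpp5d* (8.23 ± 0.50) and the phosphatase *Ptpn6* (6.45 ± 0.45), while the kinase *Fyn* was lower (-0.88 ± 0.25). After stretch 0 of 14 were called in the immune fraction (1 at an unadjusted p under 0.05), with a median of 0.094. The adaptor *Lat2* was at 87.2, 74.1, 95.9 and 104.8 CPM in stretched libraries 1, 2, 7 and 8 and at 26.9, 11.5, 24.2 and 67.8 CPM in immune controls 3 to 6. These did not overlap, and the log2 fold change was 1.33 ± 0.40 (adjusted p = 0.182, edgeR). The groups did not overlap for 2 of the 14 genes, against 11.5% of all genes tested.

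In control skin 5 of 7 lipid mediator genes were higher and 0 lower in the immune fraction. Among the higher were *Alox5ap* (7.82 ± 0.51), which assists leukotriene synthesis, and the prostaglandin D2 synthase *Hpgds* (4.95 ± 0.80). Of the 8 cytokine genes 5 were higher and 0 lower in control skin, among them *Il13* (7.83 ± 0.90) and *Il4* (6.84 ± 0.63). In stretched skin 4 of 7 lipid mediator genes were higher and 1 lower, and 6 of 8 cytokine genes were higher and 1 lower. After stretch 0 of 7 lipid mediator genes (0 at an unadjusted p under 0.05) and 0 of 8 cytokine genes (1 at that level) were called in the immune fraction by edgeR. The other Mas-related receptor of connective tissue mast cells, *Mrgprb1*, was higher in the immune fraction (9.11 ± 0.85) and had a stretch value of 1.13 ± 0.45 (adjusted p = 0.243, edgeR), beside 1.11 ± 0.58 for *Mrgprb2*.

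Genes of mast cell growth, survival and transcription other than *Kit* and *Gata2* split between the fractions, with 2 of 8 tested higher and 1 lower in the immune fraction of control skin. After stretch 0 of 10 were called in the immune fraction by edgeR (1 at an unadjusted p under 0.05), with a median of -0.145. Of 3 further Mas-related receptor genes tested between the fractions of control skin, 2 were higher in the immune fraction and 1 lower. Basophil genes there gave 2 higher and 1 lower of 3, eosinophil genes 2 higher of 2, neutrophil genes 6 higher of 7, and fibroblast genes 5 lower of 5. In stretched skin the growth, survival and transcription genes gave 4 higher and 2 lower of 10, and Mas-related receptors 1 higher and 1 lower of 2. Basophil genes gave 3 higher and 1 lower of 4 and neutrophil genes 6 higher of 6, with eosinophil and fibroblast counts unchanged. None of these lists held a gene called for stretch in the immune fraction (edgeR). Only 2 of the Mas-related receptors were tested there, *Mrgprb1* and *Mrgpra2b*. *Mrgpra2b* was at 149.5 CPM in stretched library 2, the one rich in neutrophil reads, and at 0.106 to 2.27 CPM in stretched libraries 1, 7 and 8. The controls had 1.67 to 20.7 CPM, so its value of 1.66 ± 1.66 rests on 1 library.

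In the stromal fraction 7 of the 10 members passed the filter on low counts, and 0 of 7 were called after stretch (edgeR, 0 also at an unadjusted p under 0.05, and 0 by DESeq2), against 4.98% of 16074 genes. Of those genes, 4309 had an unadjusted p under 0.05, and DESeq2 called 2312. Stretched and control libraries overlapped for 10 of 10 members, while 18% of all genes tested did not overlap. *Hdc* had a log2 fold change of 0.89 ± 0.61, *Kit* of 0.83 ± 0.82 and *Gata2* of 0.76 ± 0.43, and *Mcpt4* (-0.89 ± 0.85), *Cpa3* (-0.81 ± 0.67), *Cma1* (-0.70 ± 0.91) and *Tpsb2* (-0.28 ± 0.82) had negative values. Without stretched stromal libraries 7 and 8 the value of *Kit* was 0, and those of *Cma1* and *Tpsb2* were 0.185 and 0.42. *Hdc* had -0.10 without stretched library 5. At 0.116 to 4.47 CPM, these protease levels rest on 3 to 79 reads per library for *Cma1* and *Cpa3*.

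**Figure D5:**
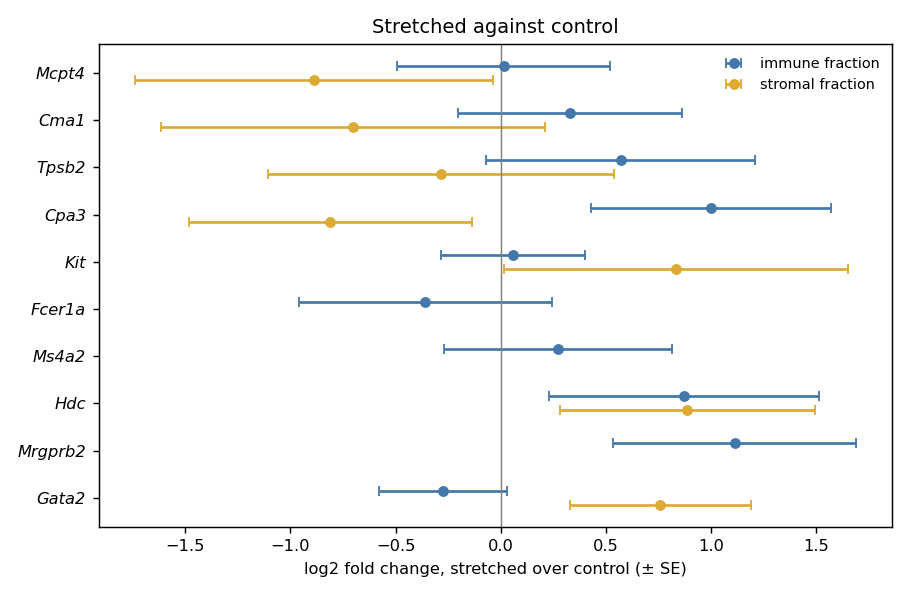
Log2 fold change of stretched over control libraries in the immune and the stromal fraction, with SE bars from the edgeR fit (n = 4 libraries per group); *Fcer1a*, *Ms4a2* and *Mrgprb2* were not tested in the stromal fraction. Values run from -0.36 (*Fcer1a*) to 1.11 (*Mrgprb2*) in the immune fraction, and none passed the test.

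The difference of the stretch effects, immune minus stromal, was tested with all 16 libraries, and 0 of 10 members were called (edgeR, 1 at an unadjusted p under 0.05, and 0 by DESeq2), where 0% of 18295 genes were called (4232 had an unadjusted p under 0.05, and DESeq2 called 1625). The member at the unadjusted level was *Ms4a2*, with 1 read in the stromal controls and 36 in the stretched stromal libraries. It did not pass the filter for stretch in the stromal fraction and entered here through its immune reads, as did *Fcer1a* and *Mrgprb2*. The difference for *Ms4a2* was -3.49 ± 1.43 (adjusted p = 0.165, edgeR). It was -1.71 without immune control 4 and stretched stromal libraries 7 and 8 and -2.22 without stretched stromal library 7 alone. *Cpa3* had a difference of 1.95 ± 0.94 (adjusted p = 0.227, edgeR) and *Gata2* of -0.87 ± 0.50 (adjusted p = 0.303, edgeR).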

How the data were processed

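Whole-number counts per gene ID were deposited by the authors in 1 table, with 16 columns that each match 1 sample and 0 that match none. Per the labels' protocols, total RNA was turned into cDNA by a SMART-Seq mRNA LP kit, and Nextera XT was used for the libraries. FastQC 0.11.9, STAR and mm10 are named in the submitters' processing notes. The labels do not state the counting tool, strand setting, treatment of multiply mapped reads or annotation release. The chemistry carries no molecular identifiers in these files, so reads that are copies of a single molecule cannot be told apart. The intervals treat each read as independent and cover the counting error of reads only.

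Symbols, exon lengths and positions came from GENCODE M21 (GRCm38), which matched 55394 of 55487 IDs. Of 115 listed symbols 114 had a row. Genes were filtered with filterByExpr (minimum count 10, minimum total 15), scaled by TMM and tested with edgeR 4.0.16 in R 4.3.3 (quasi-likelihood, Benjamini-Hochberg over all genes tested, threshold 0.05). Each two-group comparison used its own 8 libraries, and the difference of effects used all 16. SEs were derived from the fold change and its F statistic. DESeq2 1.42.0, other scale factors and filters, 1 joint fit, a replicate block and left-out libraries were the alternatives, whose effect is in the closing section. The fits were tested on simulated data.

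The members, the 14 other gene lists and the left-out libraries were chosen with earlier results of these data known. The rule named all members, *Ptprc*, up to 4 genes per list by smallest p, and the 10 genes most correlated with the members (mean CPM at least 5, 0.5 CPM added before log2; Gm, Rik and pseudogene symbols left out). The search for GATA letters, the ratios between members, the comparison of spread, the pairing of *Hdc* with neutrophil and *Kit* with melanocyte genes, and the naming of *Cd63* and *Fyn* as lower genes of their lists and of single basophil, eosinophil and mucosal protease genes followed after values were seen. Values without immune control 4 over the immune libraries (CPM not rescaled) were also added after the data were seen. One listed gene is not reported here by name.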

Additional observations from a re-analysis of the deposited data

Results flagged for a closer look

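In 40 sets of 4 libraries (10 genes in 4 groups), 8 held a library whose gap to its nearest neighbour took up more than 0.829 of the group's range (Dixon's 95% critical value). The rate of about 1 set in 20 behind this value is for independent, normally distributed values. These sets share libraries and some hold few reads, so the 8 cannot be set against that rate. *Tpsb2* was at 1915 CPM in immune control 6, against 180.1 to 436 CPM in the other 3 controls. *Hdc* was at 4818 CPM in stretched immune library 2 (725 to 1112 CPM in the others) and *Fcer1a* at 31.6 CPM in the same library (8.99 to 11.6 CPM). *Hdc* was at 10.0005 CPM in stretched stromal library 5, against 1.80 to 2.27 CPM. *Gata2* was at 1.75 CPM in stromal control 1, against 0.708 to 0.792 CPM. In stromal control 4, *Fcer1a* was at 0.113 CPM, *Ms4a2* at 0.0565 CPM and *Mrgprb2* at 0.170 CPM, where the other 3 stromal controls had 0 reads. These values rest on 2, 1 and 3 reads, and a set with 1 library above 0 is flagged whatever its value.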

How the results depend on the processing

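The 10 calls between the fractions held in each alternative run in which the gene was tested, in control and in stretched skin. With the stricter filter only 7 members were tested in control skin, and 7 were called. No member was called for stretch, or for the difference of stretch effects, in any alternative run. The counts over all genes depended more on the setting. In the immune fraction the 0 genes called for stretch became 781 with DESeq2, 667 with all 16 libraries in 1 fit and 21 without stretched library 2 and control 4, and 0 to 45 with 1 library left out (45 without stretched library 2). In the stromal fraction the 800 genes became 2312 with DESeq2, 2115 with no filter, 1378 with the stricter filter (50 reads in 4 libraries), and 0 in 1 joint fit or without the libraries with many olfactory and vomeronasal receptor reads. With 1 stromal library left out they ranged from 0 to 1589: 0 without control 1, 2 or 3 or stretched 7 or 8, 2 without stretched 6, 1589 without stretched 5. For the difference of effects the 0 became 1625 with DESeq2, 3924 with no filter, 120 with the stricter filter, 698 without immune stretched 2 and control 4, and 0 to 1495 with 1 library left out (1495 without immune control 6, 114 without stretched 2, 29 without control 4). The 8380 genes called between the fractions in stretched skin became 5402 without the receptor-read libraries. The causes were not tested.

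Directions of uncalled members turned in 46 of the values recomputed. For stretch in the immune fraction *Mcpt4* was -0.005 with RLE factors and with DESeq2, -0.026 with the stricter filter, -0.21 without the receptor-read libraries and -0.255 without stretched 2 and control 4; there *Cma1* was -0.081, *Kit* -0.045 and *Hdc* -0.45, and *Kit* was -0.023 without the receptor-read libraries. With 1 library left out *Mcpt4* ranged from -0.30 to 0.48, *Hdc* from -0.26 to 1.10, *Kit* from -0.20 to 0.34 and *Ms4a2* from -0.093 to 0.72. In the stromal fraction, without the receptor-read libraries, *Cma1* was 0.185, *Tpsb2* 0.42 and *Kit* 0; with 1 library left out *Hdc* ranged from -0.10 to 1.31, *Tpsb2* from -0.635 to 0.44 and *Cma1* from -1.38 to 0.27. The difference of effects for *Hdc* was -0.034 with RLE factors, -0.042 with DESeq2, -0.815 without the receptor-read libraries and -1.16 without immune stretched 2 and control 4. Without the receptor-read libraries it was -0.135 for *Mcpt4*, -0.061 for *Cma1*, -0.083 for *Tpsb2* and 0.039 for *Kit*. With 1 library left out it ranged from -1.12 to 1.10 for *Hdc* and from -1.64 to 1.81 for *Mrgprb2* (-1.64 without stromal control 4). The causes were not tested. With CPM on the library total, 38 of 40 group means of members moved by less than their group's SD. In the immune controls that SD was 40.5% to 121% of the mean, so only large shifts could exceed it there. The stretched immune means of *Mcpt4* and *Tpsb2*, with SDs of 4.27% and 2.91% of the mean, moved further, to 1154 and 956 CPM.

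Title numbers 1, 2, 5 and 6 each join a stretched library with a control library of the other fraction. These numbers therefore cannot mark fractions of a single skin sample. Deviations from the group means correlated at -0.089 to 0.175 within a number, and 0 of 8 immune libraries correlated best with their own number. With that number as a replicate block, 0 genes were called for stretch in the immune and 0 in the stromal fraction, 7203 and 4780 between the fractions, and 2 for the difference of effects. Under the block the immune stretch values of *Kit* (-0.88), *Fcer1a* (0.15) and *Ms4a2* (-0.24) changed sign, and those of *Tpsb2* (3.13), *Cma1* (2.80), *Cpa3* (2.49), *Mcpt4* (2.01), *Mrgprb2* (1.84) and *Hdc* (1.34) were larger than reported, with none called (adjusted p 0.32 to 0.98, edgeR). The difference of effects for the 4 proteases was 3.66 to 3.87 under the block. *Fcer1a*, *Ms4a2* and *Mrgprb2* had too few reads in the stromal libraries to pass the filter for stretch there. They were tested without the filter, in the joint fit and under the block, and none was called. Without the filter *Ms4a2* had 4.05 (adjusted p = 0.082, edgeR), *Fcer1a* 1.28 and *Mrgprb2* 0.096. *Ms4a2* had 3.93 in the joint fit and 3.64 under the block, from 1 control read and 36 stretched reads.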
